A study of Mus musculus with 24 samples.

Results

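The miR-183, miR-96 and miR-182 cluster (probes mmu-miR-183, mmu-miR-96 and mmu-miR-182) comprised 3 of the 566 mouse miRNA probes that the nCounter panel measured in 24 samples, and its members were taken by probe name alone. The study profiled tumors formed by JygMC(A)-GFP/Luc cells, a mouse mammary carcinoma line used as a model of triple-negative breast cancer and transduced with luciferase and green fluorescent protein. The hosts were female BalbC nude mice of 6 to 9 weeks, athymic animals that lack mature T cells, injected into the fourth mammary fat pads. The samples were epithelial carcinoma areas (n = 5) and spindle-like EMT-like areas (n = 7) of the primary tumors (PT), lung metastases (n = 4), normal mammary gland (NMG, n = 2) and normal lung parenchyma (n = 2) of BalbC nude mice. In addition, the same cells were grown as monolayer (n = 2) or as third-generation 3D-spheres (n = 2), so every tumor and culture sample goes back to a single cell line. The 16 tumor samples carried 8 animal labels, 1 of which named 3 animals, and 4 of these labels occurred on both carcinoma and EMT-like samples. Carcinoma, EMT-like and metastasis samples therefore shared animals, and the normal lung and NMG samples carried matching numbers of a separate labelling, taken here as 2 animals that each gave both tissues, which the labels do not state. The protocol given with all samples names laser capture for tissue without listing the normal tissues, so how these were taken is known only from that shared text.

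MicroRNAs are small RNAs that pair with messenger RNAs, mainly through the seed near their 5′ end, and lower their translation or stability. The miR-183, miR-96 and miR-182 genes lie side by side and are thought to be processed from a common primary transcript. They are known for their abundance in sensory cells of the retina and inner ear, and they are often raised in carcinomas of the breast, where FOXO transcription factors are among their known targets.

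The mature 5p sequences are shown because the members resemble each other without sharing a seed, and each probe is read as a separate miRNA. They were taken from RefSeq on GRCm38.p6, where 3 of 3 members matched, and capitals mark the seed, bases 2 to 8 from the 5′ end. The panel names give no arm, so the 5p arm was assumed for all 3 members.
miR-183: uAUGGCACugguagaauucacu
miR-96: uUUGGCACuagcacauuuuugcu
miR-182: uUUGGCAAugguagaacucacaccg
No pair of members had the same seed. Aligned at their first base without gaps, miR-183 and miR-182 matched at 18 of 22 bases but at only 5 seed bases. The other pairs matched at 6 seed bases each, with 13 of 22 bases for miR-183 and miR-96 and 12 of 23 for miR-182 and miR-96. Among 1679 mature RefSeq miRNAs, the seeds of miR-183 and miR-182 occurred in no other entry, and that of miR-96 also occurred in miR-1271-5p, which the panel did not measure.

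The 3 hairpins lie on the minus strand of chromosome 6 of GRCm38.p6, within the span of the long noncoding gene Mirc35hg. The hairpin of miR-183 is at chr6:30169668-30169737, that of miR-96 at chr6:30169446-30169551 and that of miR-182 at chr6:30165918-30165992. Only 116 bases separate the hairpins of miR-183 and miR-96, whereas 3453 bases separate those of miR-96 and miR-182. No probe for the opposite arm of any of the 3 hairpins was on the panel.

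In the deposited values, each lane's average over its 6 negative control probes had been taken off every count. The sum over the panel's miRNAs ranged from 61497 to 183539 in tumor samples, from 525225 to 2334955 in normal tissues and from 24418 to 44953 in cultures, so lanes were scaled by trimmed mean of M values (TMM) before levels were compared. A probe was called detected where this difference exceeded 2 SD of the lane's negative controls, which came to between 4 and 21.4 counts. Intervals and tests rest on the spread between samples, and the nCounter values carry no separate estimate of counting error. In these bulk samples, fewer cells of a type and less RNA per cell cannot be told apart.

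miR-183 and miR-96 were detected in all 16 tumor samples with normalized values in a similar range, while miR-182 lay close to the detection limit. Probes may differ in efficiency, so these values do not rank the miRNAs by abundance. The normalized values of miR-183 in the carcinoma samples were 267, 191, 264, 77.4 and 188, and those of miR-96 were 237, 207, 289, 89.9 and 254. In the EMT-like samples, miR-183 ranged from 56.1 to 184 with a median of 112, and miR-96 from 48.0 to 221 with a median of 104. In the lung metastases, miR-183 was 226, 151, 135 and 163, and miR-96 was 223, 206, 146 and 188. Carcinoma replicate 4 was the lowest carcinoma sample for both, the other 4 lay above every EMT-like sample for miR-183, and the 3 kinds of tumor sample overlapped. The normalized values of miR-182 in carcinoma were 28.8, 47.3, 38.3, 0 and 21.8, with 4 of 5 lanes detected. In EMT-like areas miR-182 ranged from 9.80 to 30.03 with a median of 13.5 and was detected in 5 of 7 lanes, and in metastases it was 31.6, 24.8, 32.1 and 33.5 with 3 of 4 detected. Only 9 of the 24 lanes kept miR-182 above a limit of 3 SD, so its fold changes carry little precision.

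**Figure D1:**
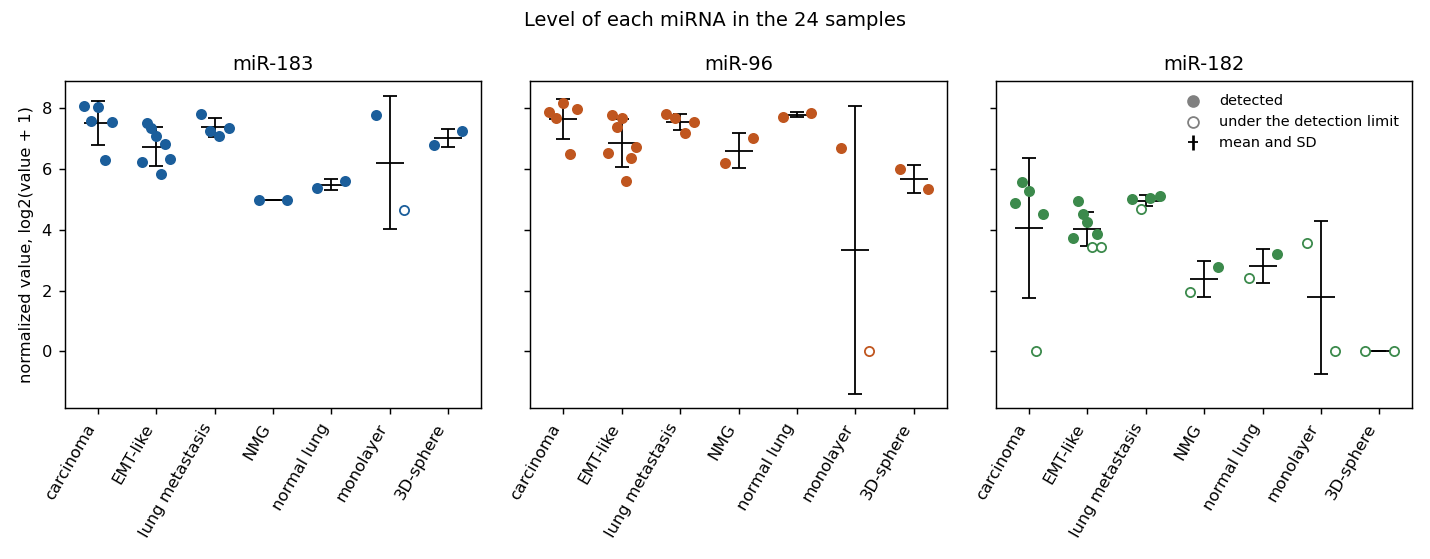
Normalized level of miR-183, miR-96 and miR-182 (y axis, log2 of value + 1) in each of the 24 samples by group, with bars for mean and SD and open points for lanes under the detection limit. All tumor samples of miR-183 lie above the NMG and normal lung samples, and miR-182 is open in all 4 cultures.

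The comparison of carcinoma with EMT-like areas asked whether the cluster follows the epithelial or the spindle-like cells. Carcinoma had a mean normalized miR-183 level of 198 ± 77.2 (SD, n = 5), against 115 ± 48.0 (SD, n = 7) in the EMT-like samples, and the log2 difference was 0.77 (95% interval -0.10 to 1.64, limma adjusted p = 0.427). For miR-96 the log2 difference was 0.79 (95% interval -0.66 to 2.23, limma adjusted p = 0.668), and for miR-182 it was 0.03 (95% interval -1.52 to 1.58). Without carcinoma replicate 4, where miR-182 was at 0, the difference of miR-182 was 1.04 and was not called (limma adjusted p = 0.322). None of the 3 members was called by limma, against 1 of 583 probes (0.172%), and none had an unadjusted limma p under 0.05. The exact permutation test gave p = 0.0833 for miR-183 and 0.0859 for miR-96. Within the 4 animal labels that had both kinds of area, the carcinoma sample was higher for miR-183 in 3 and for miR-96 in 2, with log2 differences of miR-183 between -1.06 and 1.83. By the style of animal label, the log2 difference of miR-183 was 1.02 among the lettered labels (3 against 2 samples) and 0.24 among the numbered ones (2 against 5 samples), and the difference between them had a limma adjusted p of 0.964.

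Lung metastases were compared with both areas to ask whether the cluster changes at the distant site. None of the 3 members was called against PT as a whole, carcinoma or EMT-like areas, where limma called 2.74%, 1.37% and 7.72% of the 583 probes, and none had an unadjusted limma p under 0.05. The log2 differences from PT were 0.25 for miR-183 (95% interval -0.61 to 1.11), 0.30 for miR-96 (95% interval -1.13 to 1.73) and 0.92 for miR-182 (95% interval -0.61 to 2.46), which was 0.42 without carcinoma replicate 4. Against carcinoma, miR-183 and miR-96 differed by -0.13 and -0.09 on the log2 scale. Against EMT-like areas, the scaled value of the metastasis of the same animal label was higher in 4 of 4 labels for each member, with mean log2 differences of 0.76 for miR-183, 0.74 for miR-96 and 1.14 for miR-182, although miR-96 was higher by only 0.0021 in the closest pair. On deposited values, miR-183 was lower in metastasis replicates 2 and 3 (79 and 105) than in their EMT-like pairs (142 and 141). Deposited miR-96 was lower in metastasis replicates 2 and 4 (108 and 129) than in theirs (214 and 138), and other pairs of both kept the direction. With no scaling, the group differences were -0.093 for miR-183 and -0.035 for miR-96. miR-182 was undetected in metastasis replicate 2 and EMT-like replicate 7. The exact permutation test of miR-182 over all samples of these groups gave p = 0.0121, which was 0.143 after adjustment over the 30 member comparisons.

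Members of an epithelial list of 7 miRNAs (miR-200a, miR-200b, miR-200c, miR-141, miR-429, miR-203 and miR-205) were read beside the cluster, since the miR-200 family is a known marker of epithelial cells. Their summed normalized level lay between 930 and 5385 in carcinoma, between 59.4 and 1758 in EMT-like samples and between 2509 and 4671 in metastases. In carcinoma against EMT-like areas, 0 of the 7 passed in limma and their median log2 difference was 2.80, beside -0.16 over all probes. In metastases against EMT-like areas, 6 of the 7 were higher, with a median of 3.66, where 2.74% of all probes and 0 of the 3 cluster members were higher. To set the members beside the list, miR-183 and miR-96 were each divided by the summed epithelial list within the lane, a ratio that no scaling between lanes can move.

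The ratio of miR-183 to the list was 4.99% to 16.3% in carcinoma, 10.5% to 187% in EMT-like areas and 4.67% to 6.56% in metastases. The difference of its log2 values was -2.12 between carcinoma and EMT-like areas (exact permutation p = 0.0101, adjusted p = 0.0189) and its difference between metastases and EMT-like areas was -2.63 (exact permutation p = 0.00606, the smallest possible, adjusted p = 0.0182). For miR-96 the same differences were -2.11 (exact permutation p = 0.0126, adjusted p = 0.0189) and -2.57 (exact permutation p = 0.00606, adjusted p = 0.0182). In these samples the summed epithelial list thus differed more from EMT-like areas than miR-183 and miR-96 did, in both carcinoma and metastases. Metastases and carcinoma did not pass, with differences of -0.50 for miR-183 (exact permutation p = 0.143) and -0.46 for miR-96 (exact permutation p = 0.397). These 6 tests were chosen after seeing the data and treated samples as independent. The study had already reported miR-200 family members as higher in the epithelial areas of these samples. A lower ratio in carcinoma than in EMT-like areas was therefore likely from the choice of list. The same holds for metastases, where 6 of the 7 list members were called higher than in EMT-like areas in these same samples. The p-values of both comparisons describe the ratios without independent support. Within animal labels, the ratio of miR-183 to the list was lower in carcinoma than in EMT-like areas in 4 of 4 and lower in metastases than in EMT-like areas in 4 of 4. Carcinoma against EMT-like areas gave -1.11 for miR-183 among lettered labels and -2.08 among numbered ones, where exact permutation tests gave p = 0.200 (the smallest possible) and 0.190.

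**Figure D2:**
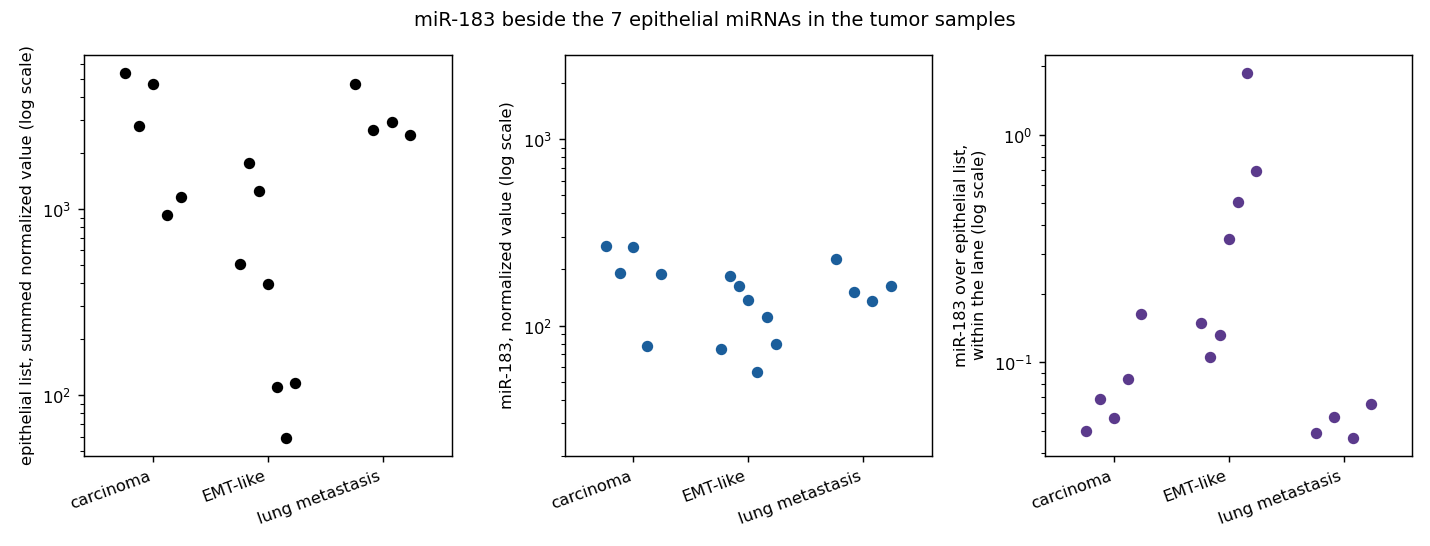
Summed normalized level of the 7 epithelial miRNAs (left), normalized level of miR-183 (middle) and their within-lane ratio (right) in each carcinoma, EMT-like and lung metastasis sample, on log axes, of which the first and second span the same number of decades. The list ranges from 59.4 to 1758 in EMT-like areas while miR-183 stays between 56.1 and 184.

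Against normal mammary gland, miR-183 was the only member called. Its normalized values were 30.5 and 30.4 in NMG, below all 12 PT samples. Before scaling the groups overlapped, with deposited values of 74 and 82 in NMG and 62 to 276 in PT. The share of all probes without overlap between these groups was not counted. Limma gave a log2 difference of 2.54 ± 0.60 (SE) for carcinoma (adjusted p = 0.00270), where 5.49% of the 583 probes were called higher, and of 1.77 ± 0.57 (SE) for EMT-like areas (adjusted p = 0.0247), where 4.46% were. The exact permutation test reached its smallest possible p in both, 0.0952 and 0.0556. Both comparisons share the 2 NMG samples. The call of EMT-like areas was lost without either of them, with adjusted p of 0.151 and 0.155, where the remaining NMG sample was given the spread of the other groups.

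miR-96 was 72.5 and 129 in NMG, within the range of the tumors. Its log2 differences were 1.04 for carcinoma (95% interval -1.02 to 3.10) and 0.26 for EMT-like areas (95% interval -1.72 to 2.23), with limma adjusted p of 0.501 and 0.947. miR-182 was 2.88 and 5.94 in NMG, detected in 1 of 2 lanes. Its log2 difference was 1.68 for carcinoma (limma adjusted p = 0.273), and without carcinoma replicate 4, which was at 0, it was 2.70 with a limma adjusted p of 0.00688. For EMT-like areas it was 1.66 (limma adjusted p = 0.280), and all 7 scaled values lay above both NMG samples. The deposited values overlapped, ranging from 11 to 30 in EMT-like areas beside 7 and 16 in NMG. How many other probes separated in this way was not counted.

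Normal lung parenchyma served as the background tissue of the metastases. The normalized values of miR-183 in normal lung were 40.3 and 48.3, below all 4 metastases. Deposited values overlapped, at 65 and 272 in normal lung and 79 to 172 in metastases. Here too, the share of all probes without overlap was not counted. The log2 difference was 1.88 ± 0.62 (SE, limma adjusted p = 0.0145), where 7.03% of the 583 probes were called higher in metastases, and the exact permutation test reached its smallest possible p of 0.133. The call was lost without either normal lung sample, with adjusted p of 0.105 and 0.0932. miR-96 stood high in normal lung, at 211 and 230.4, and differed from the metastases by -0.23 on the log2 scale (limma adjusted p = 0.893). miR-182 was 4.34 and 8.16 in normal lung, with 1 of 2 lanes detected, and its log2 difference of 2.16 did not pass (limma adjusted p = 0.111). Between normal lung and NMG, 0 of the 3 members were called, where limma called 11.3% of probes, and none had an unadjusted limma p under 0.05.

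**Figure D3:**
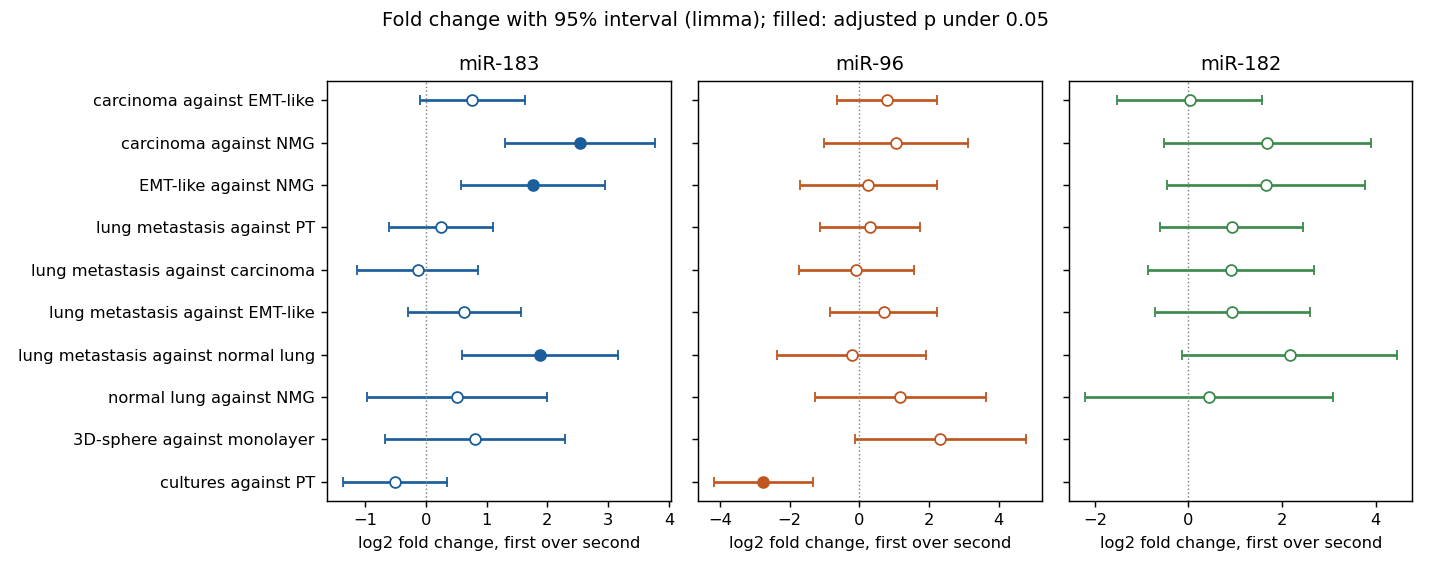
Log2 fold change of each member (x axis) in the 10 comparisons (y axis, first group over second), with 95% intervals from limma and filled points for an adjusted p under 0.05. miR-183 is filled against both normal tissues and miR-96 only in cultures against PT; miR-182 is not drawn for the 2 comparisons with cultures, where all culture lanes were under the detection limit.

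How far a tumor lay above normal tissue depended on the scaling between lanes. In carcinoma against NMG, the log2 difference of miR-183 was 0.99 on unscaled values, 1.53 after scaling by the 4 mRNA controls and 2.96 with the 100 most abundant miRNAs, and it was not called in the first and second of these. In metastases against normal lung it turned to -0.24 unscaled and -0.57 by the mRNA controls, and was 3.33 with the 100 most abundant miRNAs. The scalings moved most probes along with it: the median of the 152 brighter probes (mean log2 value above that of 20 normalized counts) was -0.06 for carcinoma against NMG as fitted and -1.63 with no scaling. Relative to that median, miR-183 was higher by 2.58 to 2.62 in carcinoma and by 2.18 to 2.23 in EMT-like areas against NMG over the 6 scalings. In metastases against normal lung the same figure was 2.73 to 2.76. miR-96 lay above the median by 1.04 to 1.11, 0.68 to 0.70 and 0.59 to 0.67 in these comparisons. This reading was chosen after seeing the data, and a common scaling shift leaves the difference in place by construction, so it gives the position of a member among the other probes and not an absolute level.

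**Figure D4:**
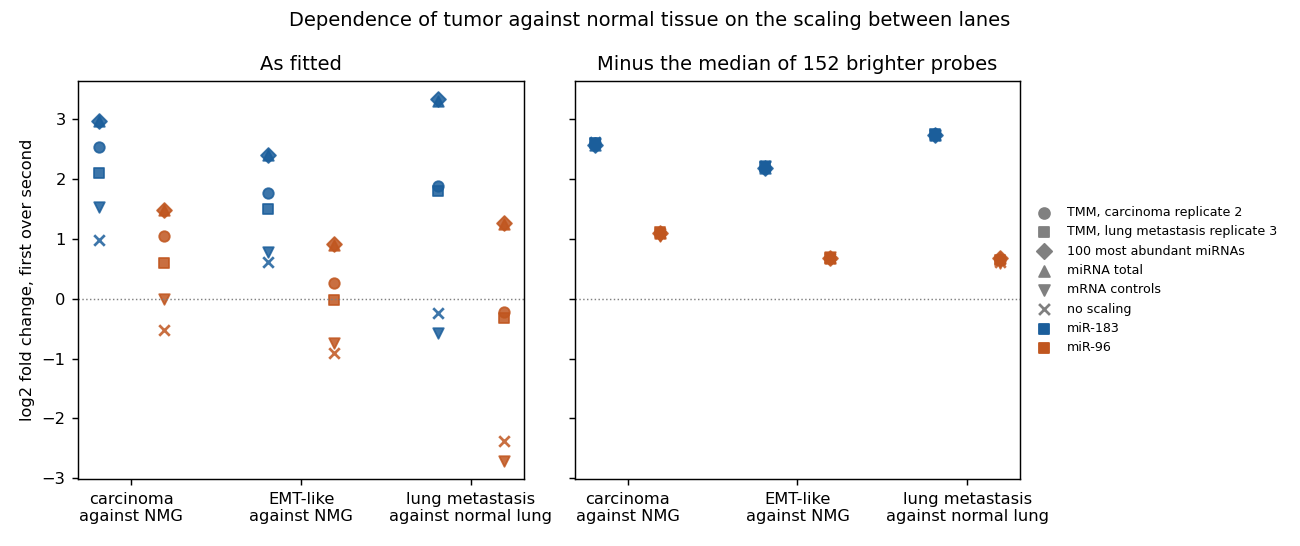
Log2 fold change of miR-183 and miR-96 in tumor against normal tissue (y axis) under 6 scalings between lanes, as fitted (left) and minus the median of the 152 brighter probes (right). The values spread from -2.72 to 3.33 on the left and fall nearly on a single point per member and comparison on the right.

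The ratio of miR-96 to miR-183 within a lane does not depend on scaling, and it separated tumors, normal tissues and cultures. It is taken on values + 1, and since the probes may differ in efficiency, only its differences between groups are read. The ratio was 0.888, 1.08, 1.09, 1.16 and 1.35 in carcinoma, ranged from 0.725 to 1.50 with a median of 1.20 in EMT-like areas, and was 0.983, 1.36, 1.08 and 1.15 in metastases. It was 2.36 and 4.21 in NMG and 5.18 and 4.76 in normal lung. The 16 tumor samples and the 4 normal samples did not overlap. How many other pairs of probes also separate these samples was not counted. The separation is therefore not shown to be particular to this pair. By series of animal labels, tumor samples ranged from 0.888 to 1.24 among lettered and from 0.725 to 1.50 among numbered labels.

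Among the tumor groups the mean log2 ratio differed by no more than 0.06, with exact permutation p of at least 0.762 over the 4 comparisons. Against NMG it differed by -1.51 in carcinoma and by -1.53 in EMT-like areas, with exact permutation p of 0.0952 and 0.0556, the smallest possible, and adjusted p of 0.343 in both over 18 ratio tests. Further comparisons were added after seeing the data, with p-values adjusted over their 10 tests. PT against NMG differed by -1.52 (exact permutation p = 0.0220, adjusted p = 0.0549) and metastases against normal lung by -2.13 (exact permutation p = 0.133, the smallest possible). All tumor samples together differed from all normal samples by -1.84, a ratio of 0.280 (exact permutation p = 0.000413, the smallest possible, adjusted p = 0.00206). The test treated samples as independent, although the 16 tumor samples carried 8 animal labels and the 4 normal samples were taken as 2 animals. Its p is therefore too small as a measure over animals. Leaving out any sample kept the difference of -1.84 between -2.09 and -1.71. The ratio of miR-182 to miR-96 was higher in tumors than in normal tissues by 1.77 (exact permutation p = 0.00949, adjusted p = 0.0317), but miR-182 was undetected in 2 of 4 normal lanes and the adjusted p rose to 0.114 without normal lung replicate 1, to 0.0619 without NMG replicate 1 and to 0.0578 without normal lung replicate 2. For miR-182 over miR-183 the difference between tumors and normal tissues was -0.07 (exact permutation p = 0.827).

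**Figure D5:**
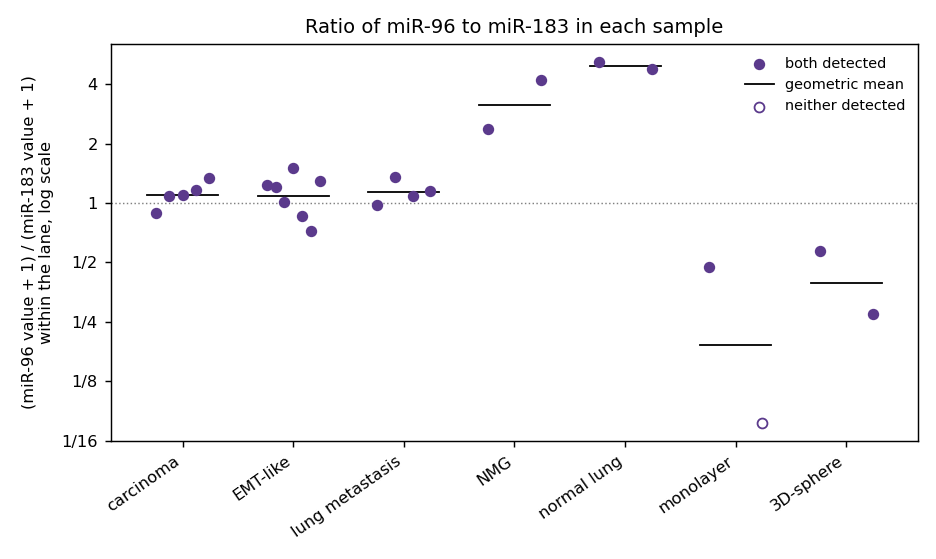
Within-lane ratio of miR-96 to miR-183 (y axis, log scale, values + 1) in each sample by group, with lines at the geometric mean and an open point where neither miRNA was detected. Tumor samples lie between 0.725 and 1.50, normal tissues at 2.36 or above and cultures at 0.569 or below.

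Summed markers of other cell types were higher in normal tissues than in tumors, except that the striated muscle ranges overlapped. The summed normalized level of the 2 endothelial probes (miR-126-3p and miR-126-5p) ranged from 10971 to 70141 in normal tissues and from 819 to 3114 in tumors, and both probes were undetected in all cultures. The 5 stromal and smooth muscle probes (such as miR-143 and miR-145) summed to 14549 to 18412 in normal tissues and to 918 to 4173 in tumors, with all 5 detected in each of these groups. The 4 leukocyte probes (such as miR-142-3p and miR-223) summed to 2500 to 6114 in normal tissues and to 230 to 887 in tumors. Limma called 3 of them lower and 1 higher in carcinoma against NMG (1.21 on the log2 scale). It also called 3 lower and 1 higher in metastases against normal lung (1.53). The median log2 differences of the 4 probes were -3.105 and -2.517 in these comparisons, beside -0.68 and -0.90 over all probes. The share of all probes called lower is not given, so the counts cannot be set against it. The 2 erythroid probes summed to 7971 to 55257 in normal tissues and to 72.0 to 476 in tumors, and miR-144 was undetected in all carcinoma and EMT-like lanes. The 4 striated muscle probes summed to 44.5 to 1724 in normal tissues and to 10.5 to 75.2 in tumors, and miR-1 was undetected in every tumor lane. The part of these cells in the levels and ratios of the cluster was not tested.

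In cultures of JygMC(A)-GFP/Luc cells, miR-183 was detected in 3 of 4 samples, miR-96 was called lower than in PT unless monolayer replicate 2 was left out, and miR-182 was not detected. The normalized values of miR-183 were 217 and 24.5 in the monolayer and 111 and 151 in 3D-spheres, and the value of monolayer replicate 2 was under its detection limit. miR-96 was 102 and 0 in the monolayer and 62.7 and 39.7 in 3D-spheres. miR-182 was under the detection limit in all 4 cultures, against 9 of 12 PT samples above it. The normalized miR-96 values of 3D-sphere replicate 2 and monolayer replicate 2 lay below all 12 PT samples, and monolayer replicate 2 stood apart from the other cultures for both miRNAs.

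Limma called miR-96 lower in cultures than in PT, with a log2 difference of -2.76 ± 0.69 (SE, adjusted p = 0.00322), where 21.8% of the 583 probes were called lower. The exact permutation test gave p = 0.0121, which was 0.143 after adjustment over the 30 member comparisons. Without monolayer replicate 2 the difference of miR-96 was -1.08 and was not called (adjusted p = 0.0596). No fold or test is given for miR-182, because the detection limit of the culture lanes reached the level of the tumors. miR-183 differed by -0.50 (95% interval -1.36 to 0.35, limma adjusted p = 0.442), with the opposite sign of 0.70 under scaling by the 100 most abundant miRNAs. The 152 brighter probes had a median log2 difference of -1.465 between cultures and PT. Relative to that median, miR-96 stood at -1.29 and miR-183 at 0.96. Between 3D-spheres and monolayer neither miR-183 (0.81, adjusted p = 0.853) nor miR-96 (2.32, adjusted p = 0.401) was called by limma, which called 4.63% of probes. Both differences turned on monolayer replicate 2, without which they were -0.74 and -1.02. Without monolayer replicate 1 no difference is given, because the monolayer sample left was under the detection limit for both.

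The within-lane ratio of miR-96 to miR-183 was 0.475 in monolayer replicate 1 and 0.569 and 0.274 in the spheres, below every tumor sample. With monolayer replicate 2, where neither was detected, the cultures differed from the tumor samples by -2.01 on the log2 scale (exact permutation p = 0.000413, the smallest possible, adjusted p = 0.00206). Without it the difference was -1.40 and the adjusted p 0.0103. Both tests treated samples as independent, although all go back to a single cell line and tumor samples shared animals. In the epithelial list, limma called 5 of 7 members lower in cultures than in PT, with a median log2 difference of -4.83. The median was -0.07 over all probes and -1.465 over the 152 brighter probes. All 7 were undetected in the 3D-spheres, and 2 of them, miR-203 and miR-205, were detected in the monolayer. miR-183 was detected in both sphere samples, and miR-96 in both at 2 SD but in 1 of 2 at 3 SD. Markers of other cells went in both directions in cultures. Limma called 4 of 5 stromal probes lower, with a median log2 difference of -4.87, as well as 2 of 2 endothelial and 1 of 2 erythroid probes. Of the 4 leukocyte probes, 2 were called lower and 1 higher. Of the 4 striated muscle probes, 2 were called higher and 0 lower, with a median of 1.75. However, miR-1 and miR-133a were undetected in all cultures and miR-133b in the 3D-spheres. The leukocyte probes miR-142-3p and miR-223 were also undetected in all cultures. No share of all probes called higher in cultures is given, so these calls are not read as a sign of such cells. The part of these cells in the levels of the cluster was not tested.

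The likeness of the members' patterns was described over the 24 samples, which share lanes, scaling factors and animals. Probes detected in at least 12 lanes, 195 mouse probes, were ranked by r. Those most like miR-183 were miR-9 (r = 0.770, rho = 0.867), miR-25 (r = 0.714, rho = 0.66) and miR-93 (r = 0.707, rho = 0.766). Here miR-182 and miR-96 ranked 9 and 14 with r of 0.586 and 0.544. For miR-96 they were miR-361 (r = 0.857, rho = 0.66), miR-21 (r = 0.839, rho = 0.407) and let-7d (r = 0.828, rho = 0.749). For miR-21 the rank correlation was thus far lower than r. The members miR-182 and miR-183 ranked 29 and 70. For miR-182 they were the joint probe of miR-106a and miR-17 (r = 0.845), that of miR-20a and miR-20b (r = 0.824) and miR-93 (r = 0.795). Thus over all groups no member was the closest probe of another. Over the 16 tumor samples alone, a choice made after seeing the data, miR-96 and miR-183 were by r the closest of the 195 to each other (r = 0.927, rho = 0.926). By rho, miR-30c was closer to miR-96 (0.932), and let-7g followed miR-183 with r = 0.894. For deviations from the group means over 24 samples, miR-96 and miR-183 ranked 5 and 7 with r = 0.896 (rho = 0.74). On unscaled values, which also carry the depth of each lane, miR-96 was by r the closest probe to miR-183 over the 24 samples (r = 0.812, rho = 0.667). By rho, miR-182 was closer to miR-183 (0.89).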

How the data were processed

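The deposited values (unit: score) were counts from which the authors had taken off each lane's mean negative control, and 35.2% of the miRNA values lay below 0. The submitters' processing notes name Partek, and further steps are not given in the sources used here. All columns were used. Groups came from the sample titles and animals from the descriptions. The 3 members and the gene lists were chosen with earlier results of these data known. The named miRNAs were the members and, for each, the 3 probes with the highest r.

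Values were floored at 0, scaled by TMM (trims of 30% and 5%, reference carcinoma replicate 2), and log2(value + 1) was fitted with limma 3.58.1 in R 4.3.3, all 7 groups at once with the animal as a random block. Adjustment (Benjamini-Hochberg) covered 583 probes with a value above 0. Python 3.11.15 with scipy 1.17.1 gave the two-sided exact permutation tests, where p is 2 times the smaller tail. These permuted samples and did not account for shared animals. The procedure was tested on simulated data. The labels do not say whether replicates of a group are separate cultures or tumors beyond the animal labels. Deviations from the group means correlated with a median r of 0.250 (range -0.379 to 0.602, 10 pairs) for samples of an animal, 0.165 for different animals within a label style (lettered or numbered, the series of animals) and -0.224 across the styles. Alternatives were other scalings, a filter on low values (20 or more in 2 or more samples), a higher background (mean plus 2 SD subtracted, floor 1), a pseudocount of 10, fits of fewer samples, other blocks and leaving out each sample.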

Additional observations from a re-analysis of the deposited data

How the results depend on the processing

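With fewer than 6 samples in most groups and miR-182 near the limit, small differences could not be resolved. Where a group was left with 1 sample, the spread of the other groups was assumed for it. Directions and calls of the tumor against normal ratios of miR-96 to miR-183, and of both ratios to the epithelial list, were kept in all alternatives run except PT against NMG. The animal as a random block had a correlation of -0.003, and a fit with no replicate block changed no call or direction. With the replicate block as a fixed term, uncalled log2 differences turned to -0.45 for miR-182 (carcinoma against EMT-like), 0.20 for miR-183 and 0.31 for miR-96 (metastasis against carcinoma), and the series of animals as a term turned the same 3 to -0.37, 0.061 and 0.076. A fit of only normal lung and NMG could not be made. No alternative is given for miR-182 in cultures, where no lane detected it, nor for 3D-sphere against monolayer without monolayer replicate 1, where the monolayer sample left was under it for both other members. Where no cause is named, the cause was not tested.

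Scaling moved comparisons with normal tissue and cultures most. With no scaling, log2 differences were 0.99 and 0.62 for miR-183 in carcinoma and EMT-like areas against NMG (not called), -0.53 and -0.91 for miR-96 in the same, -0.24 for miR-183 and -2.37 for miR-96 (called) in metastasis against normal lung, -0.28 and -0.23 for miR-183 and miR-96 in metastasis against PT, -0.093 and -0.035 in metastasis against EMT-like, -0.29 for miR-182 in carcinoma against EMT-like and -1.40 for miR-183 in cultures (called). With the mRNA controls they were 1.53 and 0.78 for miR-183 against NMG (not called), -0.0059 and -0.74 for miR-96, and -0.57, -2.72 (called) and -0.15 for miR-183, miR-96 and miR-182 in metastasis against normal lung. With the 100 most abundant miRNAs and the miRNA total they were -0.16 and -0.16 for miR-182 in carcinoma against EMT-like, 0.031 and 0.021 for miR-183 and 0.075 and 0.065 for miR-96 in metastasis against carcinoma, 1.27 and 1.24 for miR-96 and 3.33 and 3.31 (called) for miR-182 in metastasis against normal lung, -0.34 and -0.32 for miR-183 and -0.28 and -0.27 for miR-182 in normal lung against NMG, and 0.70 and 0.57 for miR-183 in cultures. miR-96 in cultures was -1.94 and not called with the 100 most abundant. TMM against lung metastasis replicate 3 gave -0.11 for miR-182 in carcinoma against EMT-like, 1.50 (not called) for miR-183 and -0.019 for miR-96 in EMT-like against NMG. The higher background ended the calls of miR-183 in EMT-like against NMG (1.78) and metastasis against normal lung (1.92). miR-182 was called in metastasis against normal lung with a pseudocount of 10 (1.32), and with only the groups compared there (2.16) and in EMT-like against NMG (1.66).

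For ratios, a pseudocount of 10 gave -0.18 for miR-182 over miR-183 in EMT-like against NMG, and made calls in PT against NMG for miR-96 over miR-183 (-1.43) and miR-182 over miR-96 (1.15). The higher background turned miR-182 over miR-183 to 0.45, 0.38, -0.071, 0.12 and 0.12 (carcinoma against EMT-like and NMG, EMT-like and PT against NMG, tumors against normal) and miR-182 over miR-96 to 0.42 (carcinoma against EMT-like). The r between members was 0.812, 0.783 and 0.748 with no scaling (miR-183 and miR-96, miR-183 and miR-182, miR-96 and miR-182) and 0.423 for miR-183 and miR-182 with the 100 most abundant. At 3 SD, miR-182 was detected in 9 lanes.

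Leaving out each sample, the log2 differences ranged as follows. miR-183 ranged from 1.64 to 1.92 (EMT-like against NMG), -0.44 to 0.0047 (metastasis against carcinoma), 1.74 to 2.01 (metastasis against normal lung), -0.74 to 1.03 (3D-sphere against monolayer) and -1.28 to 0.27 (cultures against PT). Without monolayer replicate 1 the last was called lower (adjusted p = 0.00954). miR-96 ranged from -0.15 to 0.67, -0.38 to 0.044, -1.02 to 2.65 and -4.43 to -1.08 in these comparisons, leaving aside normal lung. miR-182 ranged from -0.36 to 1.04 (carcinoma against EMT-like), 1.26 to 2.70 (carcinoma against NMG) and -0.11 to 1.29 (metastasis against carcinoma). The ratio of miR-96 to miR-183 ranged from -0.081 to 0.095 (carcinoma against EMT-like), -0.044 to 0.11 (metastasis against carcinoma), -0.034 to 0.12 (against PT) and -0.038 to 0.14 (against EMT-like). That of miR-182 to miR-183 ranged from -1.10 to 0.022, -0.71 to 0.030 and -0.44 to 0.077 (carcinoma, PT and EMT-like against NMG) and -0.22 to 0.14 (tumors against normal), and that of miR-182 to miR-96 from 1.55 to 1.98 (tumors against normal).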
